A study of Mus musculus with 6 samples.

Results

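The members were 10 genes of 4 families of RNA-binding proteins, Elavl2, Elavl3, Elavl4, Nova1, Nova2, Rbfox1, Rbfox2, Rbfox3, Ptbp1 and Ptbp2, described here in retinal ganglion cells (RGCs), the neurons whose axons form the optic nerve. They were taken by gene symbol, and all 10 members were found among the 24060 genes of the deposited count table. RNA had been sequenced from RGCs of C57BL/6 mice at embryonic day 18 (E18), when these cells extend axons readily, and at postnatal day 5 (P5), when they have lost much of that ability. There were 3 samples at each age, numbered 1, 3 and 4 at E18 and 6, 8 and 9 at P5, and none had received a treatment or carried a transgene by its labels. RGCs had been isolated from papain-dissociated retinas by immunopanning, in which macrophages were first removed on antibody-coated dishes and cells bearing CD90 (Thy1) were then held back. The number of animals behind a sample is not given, the table's header for E18 replicate 1 names 2 and 5 too, and the samples may therefore be separate preparations or pools. If they are not separate animals, the p-values measure only the spread between these samples.

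The neuronal Elavl proteins (HuB, HuC and HuD), the Nova proteins and the Rbfox proteins bind short motifs in pre-mRNA and mRNA and favour the splice forms and transcript stability of neurons. Ptbp1, the polypyrimidine tract-binding protein of progenitors and non-neuronal cells, represses many neuronal exons. Its neuronal relative Ptbp2 takes over as neurons leave the cell cycle, and one of the exons that Ptbp1 represses lies in the Ptbp2 transcript itself. Skipping that exon shifts the reading frame and exposes the transcript to nonsense-mediated decay, and Ptbp1 limits its own transcript through the related exon.

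These paired exons are shown because they are the switch by which one member controls another and itself. Both are 34 bases long in the GENCODE M21 annotation of mm10, and 26 of their bases, 76.5%, are identical. The Ptbp1 exon lies at chr10:79862014-79862047 on the plus strand and the Ptbp2 exon at chr3:119724612-119724645 on the minus strand. Each is read 5′ to 3′ along its transcript, with capitals for bases shared by both genes.
Ptbp1 exon: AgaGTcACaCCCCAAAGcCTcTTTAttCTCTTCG
Ptbp2 exon: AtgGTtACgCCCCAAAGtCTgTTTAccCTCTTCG
Of the annotated transcripts that span the site, 4 include and 2 skip the Ptbp1 exon, and 3 include and 3 skip the Ptbp2 exon. In both genes 2 of the skipping transcripts are annotated as targets of nonsense-mediated decay. A count per gene adds the reads of including and skipping forms, so the values that follow are transcript amounts and hold no measure of exon inclusion.

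The Rbfox genes share a coding exon of 93 bases that lies in the RNA-binding domain, and transcripts without it encode a protein that binds RNA poorly. It is shown because the 3 Rbfox genes are otherwise compared only by amount. Of its bases, 67 (72.0%) are identical in all 3 genes and are in capitals. The exon lies at chr16:7292185-7292277 (plus strand) in Rbfox1, chr15:77105577-77105669 (minus strand) in Rbfox2 and chr11:118502842-118502934 (minus strand) in Rbfox3.
Rbfox1 exon: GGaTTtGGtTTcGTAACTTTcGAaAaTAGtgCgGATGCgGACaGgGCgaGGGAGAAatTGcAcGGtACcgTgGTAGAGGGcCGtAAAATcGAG
Rbfox2 exon: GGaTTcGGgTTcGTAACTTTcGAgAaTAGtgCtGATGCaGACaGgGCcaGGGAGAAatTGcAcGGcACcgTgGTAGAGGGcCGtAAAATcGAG
Rbfox3 exon: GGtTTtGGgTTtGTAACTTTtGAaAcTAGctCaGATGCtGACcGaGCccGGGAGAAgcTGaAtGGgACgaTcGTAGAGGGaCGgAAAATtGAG
Annotated transcripts that skip the exon number 2 for Rbfox2 and 1 for Rbfox3, and none was found for Rbfox1, where 6 transcripts include it.

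Before the comparison, the samples were checked against markers of the retina's cell types. Reads counted on genes numbered 81213639 to 114512853 per sample, and values are given as CPM (reads of a gene relative to all counted reads of its sample) after TMM normalization. All 15 RGC markers exceeded 1 CPM in at least one sample, and their sum was 7191 to 8104 CPM at E18 and 8107 to 9404 CPM at P5. Of the 15, 3 were higher and 6 lower at E18 by the test described below. Sums were 3.64 to 5.35 CPM for 11 microglial genes, of which 9 stayed under 1 CPM in every sample, and 4.27 to 12.9 CPM for 12 photoreceptor genes, of which 8 did, rhodopsin included. The 9 bipolar genes summed to 50.1 to 74.8 CPM at E18 and 70.1 to 97.8 CPM at P5. The 12 genes of Müller glia and astrocytes summed to 529 to 624 CPM at E18 and 530 to 553 CPM at P5. Only 3 of these 12, Gfap, Aqp4 and Pax2, stayed under 1 CPM in every sample. By the test described below, 3 of the 12 were higher and 2 lower at E18. The 9 endothelial and pericyte genes summed to 72.8, 64.6 and 16.5 CPM in E18 replicates 1, 3 and 4 and to 14.6 to 17.9 CPM at P5, with 5 of them under 1 CPM throughout. Unlike the sum, more of these genes were lower (3) than higher (1) at E18 by that test. The 5 horizontal cell genes had a higher sum in every E18 sample, at 65.1 to 112 CPM against 41.5 to 47.0 CPM at P5. Singly, 2 of them were higher and none lower at E18 by the same test, and Lhx1 stayed under 1 CPM in every sample. Of these lists, that of 20 genes of progenitors and dividing cells had the widest range between samples, as the ratio of the highest to the lowest sum. Of these genes, 13 were higher and none lower at E18 by the test described next. They summed to 599, 279 and 108 CPM in E18 replicates 1, 3 and 4 and to 75.8 to 97.6 CPM at P5. The 11 amacrine genes summed to 976 to 1289 CPM at E18 and 1148 to 1242 CPM at P5. By the same test 4 of them were higher and 1 was lower at E18. The amacrine factor Tfap2b, picked from this list after its values were seen, differed from the sum. It was at 47.5, 119 and 1.62 CPM in E18 replicates 1, 3 and 4 and at 1.02 to 1.55 CPM at P5. In these bulk samples, fewer cells of a type and less RNA per cell cannot be told apart.

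The comparison of E18 with P5 asks how the splicing factor genes differ between RGC samples of these ages. Axon growth ability, other maturation and cell make-up all go with age here and cannot be told apart. Adjusted p-values come from the quasi-likelihood test in edgeR over all genes tested, SE is the standard error of a log2 fold change, and positive values are higher at E18. All 10 members passed the filter on low counts, and 5 of them were called at an adjusted p under 0.05, against 43.4% of the 16449 genes tested. Ptbp1, Rbfox2, Nova2 and Elavl3 were higher at E18, 4 members against 20.8% of all genes, and Elavl2 alone was lower, against 22.5% of all genes. The ages did not overlap in CPM for 7 members, against 56.1% of all genes, so the share of members that changed is near that of the table as a whole. Only 1 member, Ptbp1, was called with a change of at least 2-fold, against 15.9% of all genes. The median log2 fold change, E18 over P5, was 0.26 over the members and 0.00 over all genes.

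**Figure D1:**
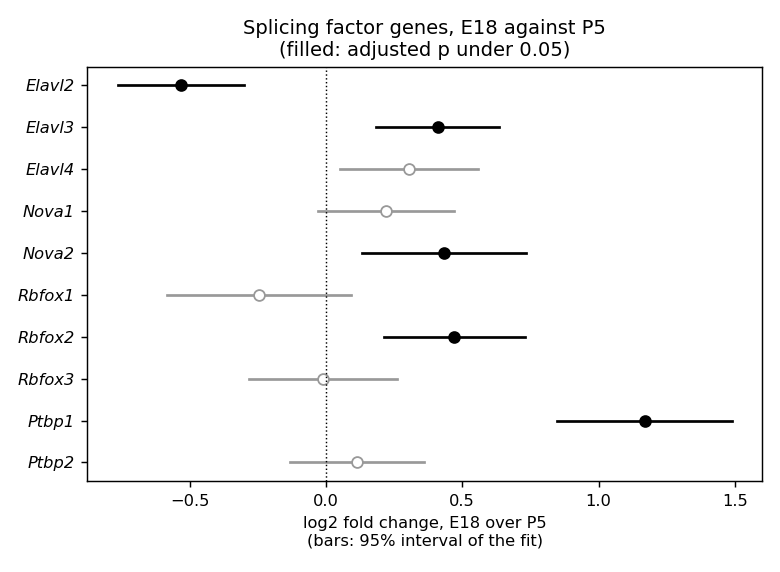
Log2 fold change of each gene, E18 over P5, with its 95% interval from edgeR's fit (3 samples per age). Filled black points passed an adjusted p of 0.05. Ptbp1 lies furthest from 0, at 1.17, and Elavl2 is the only filled point below 0, at -0.53.

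Ptbp1 (ENSMUSG00000006498.16, chr10:79854427-79864771, plus strand of mm10) changed most among the members. Its level was 58.0, 49.9 and 43.4 CPM in E18 replicates 1, 3 and 4 and 21.2, 25.8 and 20.3 CPM in P5 replicates 6, 8 and 9. Every E18 sample lay above every P5 sample. The means were 50.4 ± 7.34 and 22.4 ± 2.97 CPM (n = 3 each, SD), a 2.25-fold higher level at E18. This came to a log2 fold change of 1.17 (SE 0.141, edgeR adjusted p = 0.000599).

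Within E18, Ptbp1 was highest in replicate 1 and lowest in replicate 4, the order in which the summed progenitor and dividing-cell genes also fell. That order was not particular to this list. The sums of Müller glia and astrocyte genes fell likewise (624, 566 and 529 CPM in E18 replicates 1, 3 and 4). So did those of endothelial and pericyte genes (72.8, 64.6 and 16.5 CPM) and of photoreceptor genes (12.9, 7.71 and 4.27 CPM). Without E18 replicate 1 the log2 fold change of Ptbp1 was 1.06 (edgeR adjusted p = 0.00234). E18 replicate 4, whose progenitor and dividing-cell sum of 108 CPM was near the P5 values, held 1.93 times the P5 mean of Ptbp1, a value of a single library with no test. The same library stood at 1.43 times the P5 mean for Rbfox2, 1.42 for Elavl3, 1.29 for Nova2 and 0.718 for Elavl2. The part of any of these cell types in the difference was not tested beyond these values.

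Counts of Ptbp1 carry a further limit, since its exons overlap genes on the opposite strand and whether reads were counted by strand is not given. Plppr3, a membrane protein gene of neurons listed under its older name BC005764, shares 178 bases (5.16%) of Ptbp1's exon length and had 7.22 to 11.5 times the Ptbp1 count at E18 and 12.97 to 14.8 times at P5. It was higher at E18 as well, with a log2 fold change of 0.52 (edgeR adjusted p = 0.00448), a smaller change than that of Ptbp1. The antisense gene E130317F20Rik shares 295 bases (8.55%) and stood at 8.43 to 14.04 CPM. A further opposite-strand model, Gm17134, overlaps 437 bases (12.7%) and was not analysed here. How reads in the shared bases were assigned was not tested.

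Ptbp2 (ENSMUSG00000028134.11, chr3:119718742-119784466, minus strand) was abundant at both ages and was not called. It had 428, 501 and 478 CPM in E18 replicates 1, 3 and 4 and 436, 481 and 382 CPM in P5 replicates 6, 8 and 9. The ages overlapped. The log2 fold change of 0.11 (95% interval -0.13 to 0.36, edgeR adjusted p = 0.419) leaves room for a small change in either direction, and it ran from 0.03 without P5 replicate 9 to 0.18 without E18 replicate 1.

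The balance of the 2 proteins' transcripts was therefore read as a count ratio within each sample, which does not depend on library normalization. Ptbp2 counts were 7.38, 10.05 and 11.0 times those of Ptbp1 in E18 replicates 1, 3 and 4 and 20.6, 18.6 and 18.8 times in P5 replicates 6, 8 and 9. No E18 value reached a P5 value. The mean log2 ratio was 3.22 ± 0.302 at E18 and 4.27 ± 0.0773 at P5 (n = 3 each, SD), a 2.07-fold shift toward Ptbp2. The exact permutation p (two-sided) was 0.1, the smallest that 3 samples against 3 can give. Per kilobase of exon, Ptbp1 made up 12.9, 9.84 and 9.06% of the pair's transcripts in E18 replicates 1, 3 and 4 and 5.06 to 5.55% at P5, so Ptbp2 held most of the pair's level at both ages.

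Among the Elavl genes, Elavl2 was lower and Elavl3 higher at E18, and Elavl4 was not called. Elavl2, which encodes HuB (ENSMUSG00000008489.18, chr4:91250763-91400785, minus strand), had 162, 159 and 170 CPM in E18 replicates 1, 3 and 4 and 261, 207 and 240 CPM in P5 replicates 6, 8 and 9. The 3 E18 values lay close together and below all P5 values. Its level was 1.45-fold higher at P5, with a log2 fold change, E18 over P5, of -0.53 (SE 0.102, edgeR adjusted p = 0.00409).

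Elavl3, which encodes HuC (ENSMUSG00000003410.8, chr9:22015005-22052023, minus strand), had 485, 504 and 547 CPM in E18 replicates 1, 3 and 4 and 379, 427 and 350 CPM in P5 replicates 6, 8 and 9. All E18 values were above all P5 values, and the level was 1.33-fold higher at E18. On the log2 scale the change was 0.41 (SE 0.0991, edgeR adjusted p = 0.0110). Elavl4, which encodes HuD and binds the mRNA of the growth cone protein Gap43 (ENSMUSG00000028546.17, chr4:110203722-110351909, minus strand), had 468, 513 and 533 CPM in E18 replicates 1, 3 and 4. At P5 it had 467, 359 and 399 CPM in replicates 6, 8 and 9. The lowest E18 and the highest P5 sample were almost level. Its log2 fold change of 0.31 (95% interval 0.05 to 0.56) had an adjusted p of 0.0526 in edgeR and was not called. It was 0.40 without P5 replicate 6 (adjusted p = 0.0231 in edgeR) and 0.20 without P5 replicate 8 (0.121).

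The members of this family thus changed unequally, and ratios within samples gave the size. The log2 ratio of Elavl2 to Elavl3 counts was -1.65 ± 0.0559 at E18 and -0.71 ± 0.290 at P5 (n = 3 each, SD), a 1.92-fold shift toward Elavl2. That of Elavl2 to Elavl4 was -1.63 ± 0.0835 and -0.79 ± 0.0548 (n = 3 each, SD), a 1.79-fold shift. Neither ratio overlapped between the ages. Elavl3 against Elavl4 differed by 0.10, with overlap. Per kilobase of exon, Elavl2 made up 14.1 to 15.1% of the 3 genes' summed level at E18 and 21.7 to 25.1% at P5, while that sum was 248 ± 14.3 at E18 and 218 ± 14.8 CPM per kilobase at P5 (n = 3 each, SD).

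**Figure D2:**
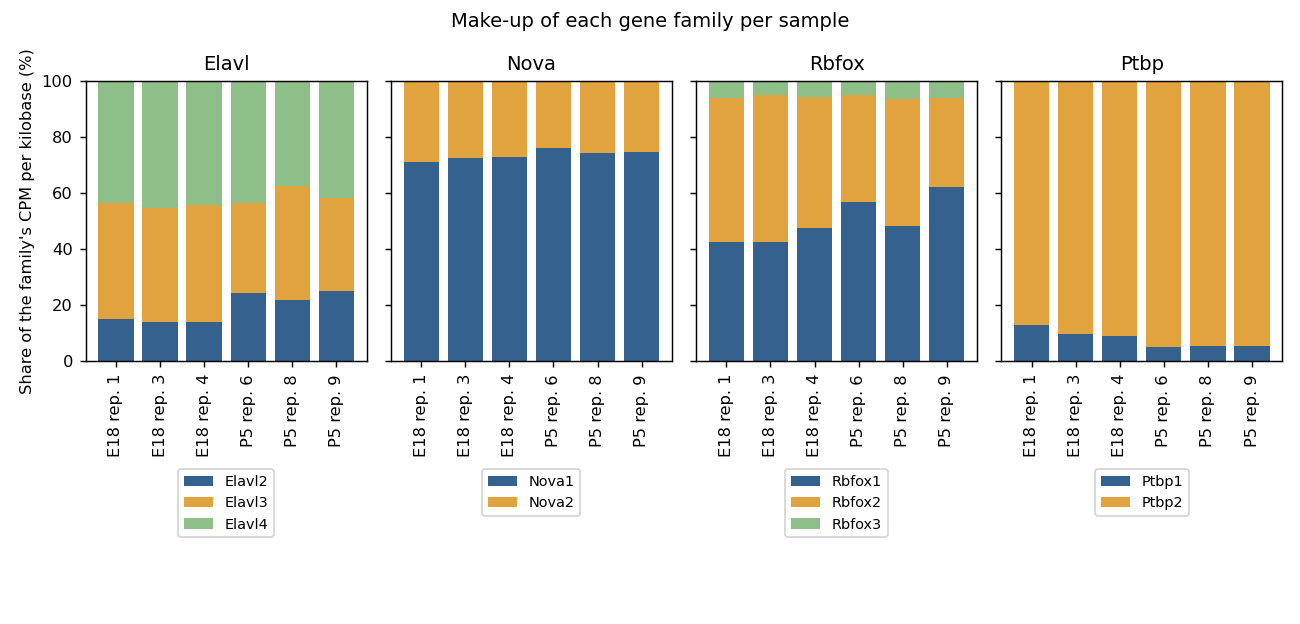
Share of each gene in its family's summed CPM per kilobase of exon, one bar per sample, with E18 replicates 1, 3 and 4 to the left and P5 replicates 6, 8 and 9 to the right. The Elavl2 share is 14.1 to 15.1% at E18 and 21.7 to 25.1% at P5, and the Ptbp1 share is 9.06 to 12.9% and 5.06 to 5.55%.

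The Nova proteins regulate exons of synaptic genes, and both genes were among the least abundant of the members. Nova1 (ENSMUSG00000021047.7, chr12:46694517-46818929, minus strand) had 39.4, 40.2 and 38.5 CPM in E18 replicates 1, 3 and 4 and 33.3, 38.1 and 30.0 CPM in P5 replicates 6, 8 and 9. P5 replicate 8 came within 1 CPM of the lowest E18 sample. Its change on the log2 scale was 0.22 (95% interval -0.03 to 0.47, edgeR adjusted p = 0.136), and it was 0.30 without P5 replicate 8 (adjusted p = 0.0200 in edgeR) and 0.14 without P5 replicate 9 (0.342).

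Nova2 (ENSMUSG00000030411.16, chr7:18925888-18965319, plus strand) had 18.6, 17.7 and 16.9 CPM in E18 replicates 1, 3 and 4 and 12.2, 15.4 and 11.9 CPM in P5 replicates 6, 8 and 9. All E18 values were above all P5 values. The log2 fold change was 0.43 (SE 0.132, edgeR adjusted p = 0.0279), but the call was lost without any one of E18 replicates 1, 3 and 4 (adjusted p = 0.102, 0.0828 and 0.0535 in edgeR) or P5 replicates 6 and 9 (0.0962 and 0.0828). The transcript Gm26821 overlaps 31.7% of its exon length on the opposite strand and was not analysed here. The log2 ratio of Nova1 to Nova2 counts was 1.15 ± 0.0615 at E18 and 1.37 ± 0.0763 at P5 (n = 3 each, SD), without overlap.

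Rbfox proteins bind the hexamer UGCAUG beside many neuronal and muscle exons. Rbfox2 (ENSMUSG00000033565.18, chr15:77078990-77307004, minus strand), which is also active outside neurons, had 784, 853 and 856 CPM in E18 replicates 1, 3 and 4 and 610, 680 and 508 CPM in P5 replicates 6, 8 and 9. Every E18 value exceeded every P5 value, and the level was 1.39-fold higher at E18. On the log2 scale this was 0.47 (SE 0.114, edgeR adjusted p = 0.0109).

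Rbfox1 (ENSMUSG00000008658.16, chr16:5885355-7411526, plus strand) had 299.5, 318 and 403 CPM in E18 replicates 1, 3 and 4 and 417, 333 and 460 CPM in P5 replicates 6, 8 and 9. E18 replicate 4 and P5 replicate 8 crossed over. The log2 fold change of -0.25 (95% interval -0.58 to 0.09, edgeR adjusted p = 0.207) was not called. Without P5 replicate 8 the log2 fold change was -0.39, with an adjusted p of 0.0403 in edgeR, and it was -0.14 without P5 replicate 9 (0.4998), -0.16 without E18 replicate 1 (0.482) and -0.38 without E18 replicate 4 (0.0694).

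Rbfox3 encodes NeuN, the nuclear antigen used to mark mature neurons (ENSMUSG00000025576.17, chr11:118489762-118911597, minus strand). It had 60.9, 54.9 and 69.2 CPM in E18 replicates 1, 3 and 4 and 54.4, 65.2 and 66.8 CPM in P5 replicates 6, 8 and 9. The ages overlapped over most of their range. Its change on the log2 scale was -0.01 (95% interval -0.28 to 0.26, edgeR adjusted p = 0.949), and its sign turned with the sample left out.

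Within the family, the log2 ratio of Rbfox1 to Rbfox2 counts was -1.39, -1.42 and -1.09 in E18 replicates 1, 3 and 4 and -0.55, -1.03 and -0.14 in P5 replicates 6, 8 and 9. These ranges did not overlap, although P5 replicate 8 lay near E18 replicate 4. The mean shift toward Rbfox1 was 1.65-fold. Per kilobase, Rbfox1 held 42.4 to 47.6% of the summed Rbfox level at E18 and 48.1 to 62.2% at P5, and Rbfox3 held 4.98 to 6.41% over both ages. Of the 7 within-family pairs of Elavl, Nova and Rbfox genes, 5 had ratios that did not overlap between the ages. Each of these had an exact permutation p (two-sided) of 0.1, the smallest this design allows, and 0.14 after Benjamini-Hochberg adjustment over the 7 pairs. The share of other gene pairs without overlap was not computed, so the count of 5 has no background. Taken singly, 56.1% of all genes did not overlap in CPM between the ages. Pairs that share a gene are not independent.

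To compare genes with each other, CPM were divided by exon length in kilobases, taken from GENCODE transcripts paired with RefSeq. At E18 the order of levels was Ptbp2 (124 ± 9.82 CPM per kilobase), Rbfox2 (114.9 ± 5.603), Elavl4 (110 ± 7.33), Elavl3 (102 ± 6.37), Rbfox1 (102 ± 16.5), Elavl2 (35.8 ± 1.23), Ptbp1 (14.6 ± 2.13), Rbfox3 (12.5 ± 1.45), Nova1 (5.50 ± 0.116) and Nova2 (2.12 ± 0.103) (n = 3 each, SD). The sample ranges of neighbours among the first 5 genes overlapped, as did those of Ptbp1 and Rbfox3. At P5 Rbfox1 stood first at 121 ± 19.4, followed by Ptbp2 (114.6 ± 13.2), Elavl4 (89.3 ± 11.9), Rbfox2 (82.9 ± 11.99) and Elavl3 (76.9 ± 7.69), again with overlap between neighbours. Ptbp1, at 6.50 ± 0.861 CPM per kilobase, then stood below Rbfox3 (12.6 ± 1.36), and their ranges no longer overlapped. The order within the upper group depends on the lengths used, since with the exons of GENCODE's basic transcript set Rbfox2 stood first at E18 and Ptbp2 below Elavl4 and Rbfox1.

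**Figure D3:**
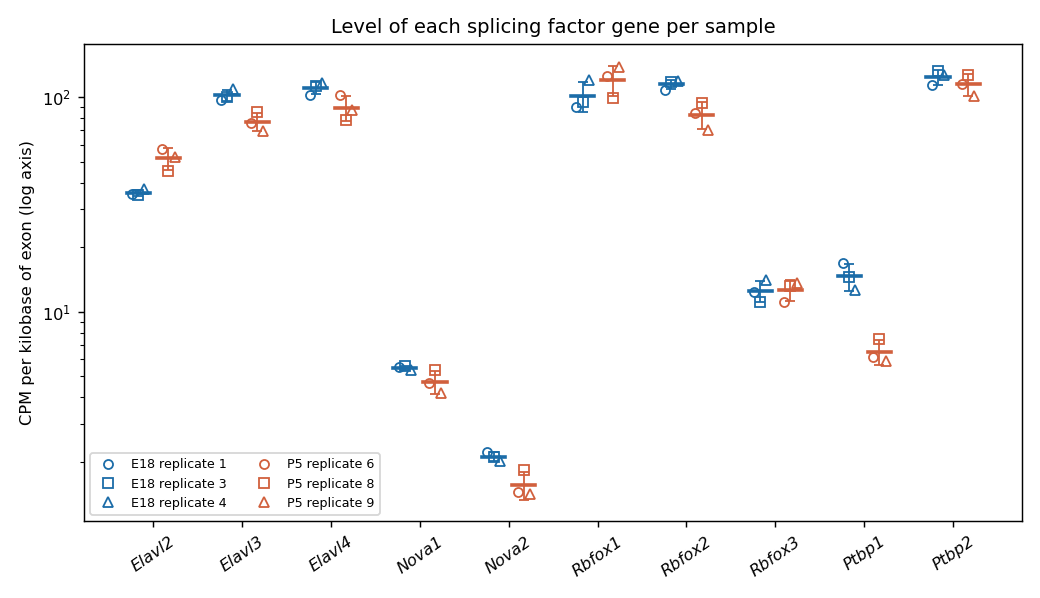
Level of each gene in CPM per kilobase of exon on a log axis, with one symbol per sample, the mean as a bar and the SD as whiskers (3 samples per age). The upper 5 genes lie between 76.9 and 124 CPM per kilobase by their means, while Ptbp1 goes from 14.6 at E18 to 6.50 at P5.

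The members differ widely in gene size. Their spans run from 10345 bases for Ptbp1 to 1526172 bases for Rbfox1, whose exons nevertheless come to 3344 bases. Stretches of 100 bases, the read length, were looked for in the transcripts of all other genes. For 8 members no such stretch was shared, and no member shared one with another member. Elavl3 shared 3.19% of its stretches with the overlapping model Gm49318, and Ptbp1 shared 1.19% with Gm4900. Transcripts annotated for nonsense-mediated decay were found for Ptbp1 (3) and Ptbp2 (2) and for no other member.

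Other splicing regulators, among them the relatives Elavl1 and Ptbp3 of the members, were read from a list of 19 genes, of which 18 were tested. Of these, 10 were higher at E18, against 20.8% of all genes, and 2 were lower, against 22.5%. Their median log2 fold change was 0.45 against 0.00 over all genes. The largest differences were those of Rbm38 (1.42), which had 3.32 to 3.59 CPM at E18 and 0.893 to 1.67 CPM at P5, of Msi1 (1.41), the Musashi protein of progenitors, and of Qk (1.35), known for its role in glia. Both Msi1 (23.5, 20.3 and 13.9 CPM) and Qk (147, 204 and 81.8 CPM) were lowest in E18 replicate 4, the E18 sample with the lowest progenitor and dividing-cell sum. That sample was also the lowest at E18 for the amacrine, horizontal cell and photoreceptor sums. The same held for the sums of Müller glia and astrocytes and of endothelial cells and pericytes. Qk was highest in replicate 3, unlike the progenitor and dividing-cell sum. At P5 Msi1 and Qk had 5.71 to 9.85 CPM and 42.9 to 70.9 CPM. Without E18 replicate 1 their log2 fold changes were 1.25 and 1.34, and without E18 replicate 3 they were 1.38 and 1.02. Without E18 replicate 4 they were 1.60 and 1.63. All of these had an adjusted p under 0.05 in edgeR. The part of progenitor or other cells in these values was not tested.

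Srrm4, the neuronal activator of microexons, was higher at E18 (log2 fold change 1.16, edgeR adjusted p = 0.00183), with 20.6 to 32.8 CPM against 10.7 to 14.1 CPM at P5. Its relative Srrm3 had 52.5 to 59.3 and 60.4 to 63.3 CPM and was not called (edgeR adjusted p = 0.171). The ubiquitous Elavl1 (HuR) was higher at E18 (0.28, edgeR adjusted p = 0.0367), and its call was lost on leaving out any sample but P5 replicate 8 (edgeR adjusted p of 0.0532 to 0.125). Ptbp3 was not called, with 76.3 to 79.6 CPM at E18 and 53.8, 76.7 and 40.2 CPM in P5 replicates 6, 8 and 9 (edgeR adjusted p = 0.0976), with a log2 fold change of 0.45. This was 0.71 without P5 replicate 8 (adjusted p = 0.00321 in edgeR) and 0.25 without P5 replicate 9 (0.226).

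The cofactors of Ptbp1 named Raver went opposite ways, with log2 fold changes of 0.57 for Raver1 and -0.57 for Raver2 (edgeR adjusted p = 0.0253 and 0.00192). Raver1 stayed under 6 CPM and lost its call on leaving out any sample but P5 replicate 8 (edgeR adjusted p of 0.0537 to 0.0817). Also higher at E18 were Khdrbs1, Khdrbs3, Msi2 and Tia1, while Rbm24 was lower. The call of Msi2 was lost without E18 replicate 3 or P5 replicates 6, 8 or 9 (edgeR adjusted p of 0.0569 to 0.121), and its log2 fold change of 0.39 was 0.24 without E18 replicate 3. The epithelial regulator Esrp1, at most 0.108 CPM, was too low to be tested, and Esrp2 stayed under 1 CPM.

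Genes whose RNA level is reported to depend on the members were taken as a list, of which 7 are described. Ptbp1 is known to keep introns of Vamp2, Sv2a and Kif5a unspliced in non-neuronal cells and to expose transcripts of Gabbr1 to decay, and Ptbp1 with Ptbp2 acts likewise on Dlg4. Of these 5 genes, Sv2a (log2 fold change -0.80) and Kif5a (-0.46) were lower at E18 (edgeR adjusted p = 0.00223 and 0.00823). Sv2a, a synaptic vesicle protein gene, had 273 to 316 CPM at E18 and 441 to 607 CPM at P5, and Kif5a, a neuronal kinesin gene, had 1096 to 1315 and 1472 to 1732 CPM. Vamp2 had 42.8 to 49.6 CPM at E18 and 49.1 to 65.2 CPM at P5 and was not called, with a log2 fold change of -0.31 (edgeR adjusted p = 0.0666). This was -0.42 without P5 replicate 6 (adjusted p = 0.0337 in edgeR) and -0.20 without P5 replicate 9 (0.196).

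The scaffold gene Dlg4, which encodes PSD-95, had 150, 142 and 169 CPM in E18 replicates 1, 3 and 4 and 144, 157 and 170 CPM in P5 replicates 6, 8 and 9. The ages overlapped over nearly all of their range, and the log2 fold change was -0.03 (95% interval -0.26 to 0.20). Gabbr1, a GABA-B receptor subunit, was at 620 to 731 and 651 to 694 CPM, with a log2 fold change of 0.02 (95% interval -0.18 to 0.23). Both changed sign when single samples were left out. Whether the exons concerned were included was not measured in these counts.

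The neuronal Elavl proteins are known to stabilize Gap43 mRNA. Gap43 was higher at E18 (log2 fold change 0.51, edgeR adjusted p = 0.00804), at 1652 to 1944 CPM against 1068 to 1381 CPM at P5. Vamp1, a synaptic vesicle gene that Rbfox1 is reported to promote, had 13.7, 12.6 and 15.4 CPM in E18 replicates 1, 3 and 4 and 20.3, 35.1 and 49.1 CPM in P5 replicates 6, 8 and 9. Its log2 fold change was -1.32 (SE 0.273, edgeR adjusted p = 0.00547). Of the 7 targets described, 1 was higher at E18, against 20.8% of all genes, and 3 were lower, against 22.5%. The median log2 fold change of these 7 was -0.31 against 0.00 over all genes, and the listed targets not reported here are in neither count.

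**Figure D4:**
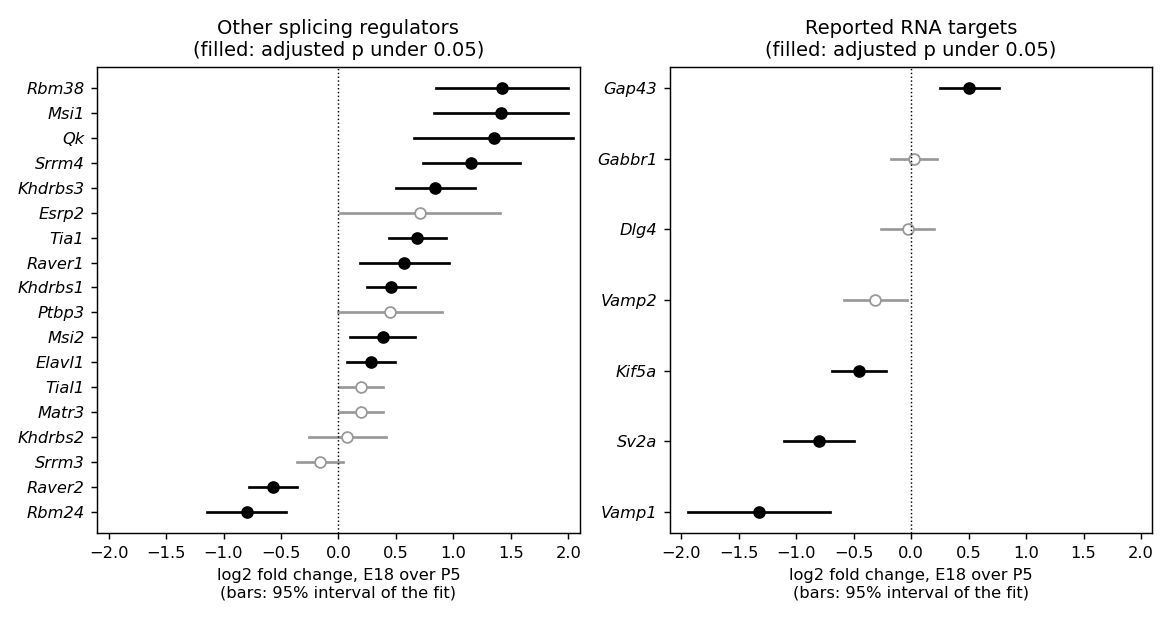
Log2 fold change, E18 over P5, with 95% intervals from edgeR's fit for 18 other splicing regulators (left) and 7 reported RNA targets (right), with filled black points for an adjusted p under 0.05. Most regulators lie above 0, up to 1.42 for Rbm38, and most targets below 0, down to -1.32 for Vamp1.

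The microRNA miR-124 is known to repress Ptbp1 in neurons. Mature microRNAs were not measured. A host transcript of miR-124, listed as A930011O12Rik, had 34.8 to 38.5 CPM at E18 and 29.1 to 43.4 CPM at P5 (log2 fold change -0.00, 95% interval -0.33 to 0.33). No other host transcript was examined. Reads counted on the precursor gene Mir124a-2 came to 3.96 to 4.20 CPM at E18 and 2.06 to 2.93 CPM at P5 (log2 fold change 0.70, edgeR adjusted p = 0.0201).

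As a description, the genes whose log2 CPM ran most closely with Ptbp1 over the 6 samples, among 9715 genes whose mean reached 10 CPM, were Hist1h2bg, Nrde2 and Hist1h3e, with Pearson's r of 0.999, 0.998 and 0.997. Hist1h2bg and Hist1h3e encode histones, and the 6 points fall into the 2 ages and share their libraries. For Rbfox3 they were C1qtnf4, Gdap1l1 and Samd14, with r of 0.980, 0.978 and 0.977.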

How the data were processed

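RNA of immunopanned RGCs was depleted of ribosomal RNA (the labels say polyA RNA) and sequenced as paired-end reads of 100 bases. The authors aligned them to mm10 with STAR 2.4.0, counted them on RefSeq genes (version 07.24.14) with HT-seq 0.6.1 and deposited raw counts per gene, which were used here. Neither the strand setting nor the handling of multi-mapping reads is given. The deposited normalized values, and the authors' own fold changes, p-values and false discovery rates, were not used. The column of E18 replicate 1 was matched by its first number.

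Counts were normalized by TMM, filtered by edgeR 4.0.16 in R 4.3.3 (16449 of 24060 genes kept) and given to its quasi-likelihood test, 3 samples against 3, with Benjamini-Hochberg adjustment over all genes tested and a threshold of 0.05. Intervals of fold changes cover 95% and come from this fit. Same-age samples differed by a chi-square of 26.0 to 121 for each degree of freedom, far beyond sampling noise, and the spread between samples, not depth, sets the precision. The test was run on simulated counts first, where it called 124 of 200 planted 2-fold changes and made 11 false calls. The changes were planted among 16318 genes, whereas 43.4% of the genes tested were called in the data. The share found in the simulation therefore does not measure the test's power here. A gene that was not called may still differ. Ratios used counts plus 0.5. Genes were placed with GENCODE M21 (mm10) by symbol, 3 members having no RefSeq identifier in the table, and A930011O12Rik and BC005764 were matched to current names by Entrez identifier.

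All members are described. In the other lists the calls are counted and the 3 largest changes named among the genes reported. Further genes of these lists were named after their values were seen, as were the overlapping genes, the miR-124 precursor gene and single markers. For Ptbp1 and Rbfox3 the 3 most similar genes are given. Of the listed targets, 2 are not reported here and enter neither counts nor medians. The members and lists were chosen with earlier results of these data known. DESeq2 1.42.0, the likelihood ratio and exact tests in edgeR, scaling by upper quartile or without TMM, other filters, a pseudocount of 5 and the omission of each sample were tried as alternatives.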

Additional observations from a re-analysis of the deposited data

How the results depend on the processing

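Over 13 alternatives for each of 10 members, 5 values lost a call, all of Nova2, 6 gained one, and 4 changed sign, all of Rbfox3 (-0.114 to 0.0703 when single samples were left out). The others of these 130 values kept their direction and their side of the threshold. Ptbp1 kept its call throughout, with log2 fold changes of 1.06 to 1.27. Elavl4 was called by DESeq2 (adjusted p = 0.0366), by edgeR's exact and likelihood ratio tests (0.0374 and 0.0370) and without P5 replicate 6 (0.0231). The number of members lower at E18 was 1 to 2 when single samples were left out, with 2 without P5 replicate 8, when Rbfox1 was added, and the number higher was 3 to 5. The log2 ratio difference of Ptbp2 to Ptbp1 was -1.17 to -0.88. Other signs that turned when single samples were left out were those of Khdrbs2 (-0.0907 to 0.16), Dlg4 (-0.10 to 0.0296), Gabbr1 (-0.0265 to 0.0938, and -0.0042 without TMM, an alternative chosen after seeing the data) and the ratio of Elavl3 to Elavl4 (-0.0085 to 0.26). Over all genes, 3426 higher and 3709 lower calls became 2137 and 2438 without E18 replicate 3, and 2282 and 2471 with a minimum of 10 CPM in 3 samples, where fewer genes were tested. They rose to 4135 and 4661 without P5 replicate 8, so the share of all genes called depends on the samples kept. No paired analysis was possible because the ages share no replicate number. The causes of these changes were not tested.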

Other observations

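P5 replicate 8 was the P5 sample nearest to the E18 mean, on the log2 CPM scale, for 9 of the 10 splicing factor genes. Elavl4 was the exception, with P5 replicate 6 nearest. Over all 16449 genes tested, P5 replicate 8 was nearest for 52.4%, replicate 6 for 28.7% and replicate 9 for 18.9%, so most genes of the table share this position.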
